A study of Mus musculus with 8 samples.

Results

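The genes described here are 10 genes of type 2 immunity and of alternatively activated macrophages, out of 21434 genes with values in pancreatic tissue of Bach2KO and Bach2WT mice. They are Retnla, Chil3, Chil4, Arg1, Mrc1, Clec10a, Mgl2, Ccl17, Ccl22 and Ccl24, found by their gene symbols, and all 10 had values. They were selected on measured values, the counts and FPKM of Bach2KO against Bach2WT mice in these same libraries. Their values in that comparison are therefore a description and no test of these genes. Their direction, or whether a fit of the whole table called them, is not evidence for anything. RNA-seq had been performed on 8 untreated mice aged 18 weeks, 4 per genotype. Mice 1 and 2 of each genotype were females and mice 3 and 4 were males. All carried the C57BL/6N background of the line C57BL/6N-Bach2tm1b(EUCOMM)Wtsi/leg. The knockout is constitutive and affects the whole body, so the tissue came from animals that lacked Bach2 in every cell type, and such mice also develop an eosinophilic lung disease. Bach2 encodes a transcriptional repressor of lymphocytes that competes with AP-1 factors for their binding sites.

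In type 2 immunity, the cytokines IL-4 and IL-13 bind receptors that contain IL-4Rα and activate the transcription factor STAT6. In macrophages this pathway turns on a set of genes known as alternative, or M2, activation, among them secreted effectors, the arginine-degrading enzyme arginase 1, and lectin receptors for sugars. Activated macrophages and dendritic cells also release the chemokines CCL17 and CCL22, the ligands of CCR4 on T helper 2 cells and regulatory T cells, and CCL24, a ligand of CCR3 on eosinophils. In the mouse these genes serve as readouts of alternative activation, and several are also made by other cells, such as Retnla by adipose tissue and epithelia or Chil3 by neutrophil precursors. The pancreas is mostly made of acinar cells, and macrophages are a minor population in it.

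The libraries held 72299745 to 172029360 counts on genes. Among counts from 10 to 60, 66.8% to 73.1% were even, as they would be if both mates of many pairs had been counted. A count of 0 is therefore read against a floor of 3 counts, or of 6 counts if each pair gave 2 counts, and both floors cover counting error only. The library of Bach2KO mouse 3 stood apart from the others, with a median correlation of log2 CPM values (counts scaled to library size with TMM factors) of 0.875 with the other libraries, against 0.900 to 0.930 for the rest. The values it bears on most, those of Retnla and Clec10a and the summed marker levels, are also given without it. For Bach2 itself, counts of 3 to 16 in Bach2KO and 4 to 31 in Bach2WT libraries were too few to check the genotype labels. The tissue label could be checked: 10 acinar cell genes together had 390790 to 440830 CPM in Bach2KO and 423284 to 553976 CPM in Bach2WT libraries. Genes were compared with edgeR's quasi-likelihood test, whose filter on low counts kept 12820 genes and 7 of the 10 genes described. Chil3, Chil4 and Ccl17 did not pass it.

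Levels per gene length were compared first, with the FPKM values (counts per kilobase of gene, scaled by the authors' size factors). In Bach2KO mice, Retnla had 7.88 ± 3.41 FPKM (SD, n = 4), followed by Mgl2 with 0.436 ± 0.185 FPKM. Retnla lay at 4.84 to 12.4 FPKM and Mgl2 at 0.171 to 0.600 FPKM, so these ranges did not overlap. Below them came Ccl24 with 0.197 ± 0.165, Clec10a with 0.182 ± 0.0729, Mrc1 with 0.164 ± 0.0438, Chil4 with 0.135 ± 0.167, Arg1 with 0.116 ± 0.133, Ccl17 with 0.100 ± 0.0371, Chil3 with 0.0962 ± 0.0749 and Ccl22 with 0.0760 ± 0.0174 FPKM (SD, n = 4 each). From Mgl2 downward, the ranges of neighbours in this order overlapped, so their order is not fixed by 4 mice. In Bach2WT mice, Retnla again had the highest level, 1.15 ± 0.722 FPKM, then Mgl2 with 0.178 ± 0.101 and Mrc1 with 0.123 ± 0.0761 FPKM (SD, n = 4 each). There too only Retnla lay clear of the next gene. Retnla was thus the only one of the 10 genes that exceeded 1 FPKM in any library.

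**Figure D1:**
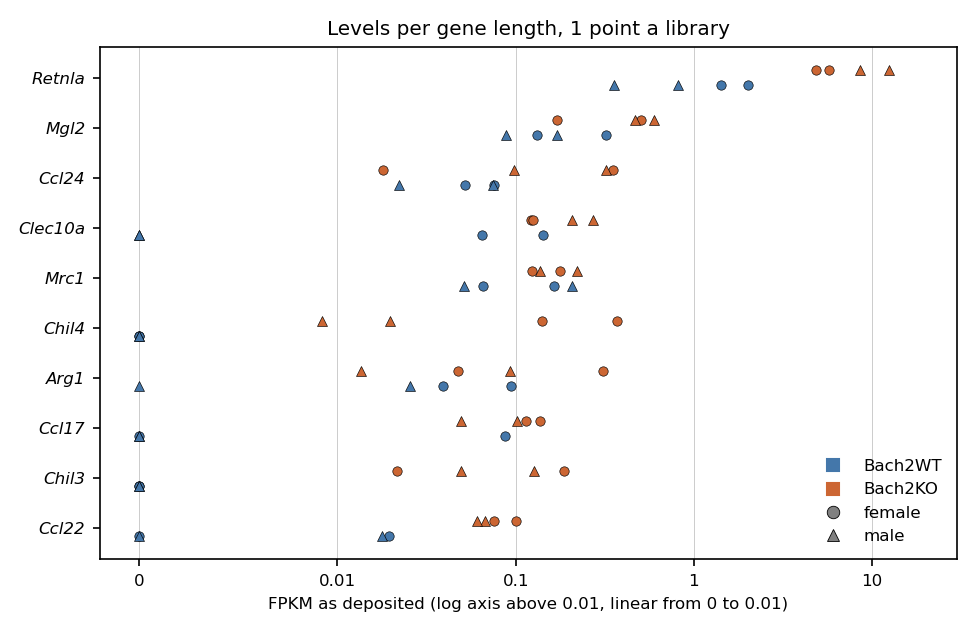
Deposited FPKM values (x axis, logarithmic above 0.01 and linear from 0 to 0.01) of the 10 genes (rows, ordered by the mean in Bach2KO mice), with 1 point per library, blue for Bach2WT and orange for Bach2KO, circles for females and triangles for males. Retnla lies at 4.84 to 12.4 FPKM in Bach2KO libraries, and points at 0 are libraries without a count.

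Retnla (ENSMUSG00000061100, chromosome 16 of GRCm39, 48662914 to 48664824, plus strand) encodes RELMα or FIZZ1, a small cysteine-rich protein secreted by alternatively activated macrophages, adipose tissue and epithelia. Its transcription in macrophages is a standard readout of STAT6, which binds palindromes of TTC and GAA separated by 4 bases. The 250 bases upstream of its RefSeq start site (GRCm38.p6, chr16:48842359-48842608, plus strand) are shown because they hold such a palindrome, printed in capitals, with its first base at position −145 from the start:
Retnla: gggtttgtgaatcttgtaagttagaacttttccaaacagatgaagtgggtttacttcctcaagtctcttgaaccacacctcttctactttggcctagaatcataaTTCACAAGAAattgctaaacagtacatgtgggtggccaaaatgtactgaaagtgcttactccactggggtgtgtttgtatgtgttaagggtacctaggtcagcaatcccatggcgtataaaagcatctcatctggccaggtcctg
The palindrome with 4 bases between its arms occurred in 6.95% of the 32851 RefSeq promoter windows (250 bases before and 50 bases after a start) on either strand, and in 2 of the 7 windows matched to the 10 genes. A match of letters is no evidence of binding.

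Retnla had 3.06, 3.54, 7.56 and 5.23 CPM in Bach2KO mice 1 to 4. In Bach2WT mice 1 to 4 it had 1.23, 0.869, 0.216 and 0.490 CPM. The lowest Bach2KO library lay above the highest Bach2WT library, and within Bach2KO mice both males lay above both females. The means were 4.85 ± 2.03 CPM and 0.702 ± 0.444 CPM (SD, n = 4 each), a ratio of 6.91, and the fitted log2 fold change was 2.79 (standard error, SE, 0.46). Without single mice the log2 fold change lay between 2.48 and 3.20, and without Bach2KO mouse 3, which had the highest value, it was 2.48. In a piece of tissue, more cells of a type and more RNA per cell cannot be told apart, for Retnla as for all genes below.

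Chil3 (ENSMUSG00000040809, chromosome 3 of GRCm39, 106054870 to 106074880, minus strand) and Chil4 (ENSMUSG00000063779, chromosome 3, 106108806 to 106126823, minus strand) encode the chitinase-like lectins Ym1 and Ym2, which bind sugars but do not cleave chitin. They can form the protein crystals seen in lungs with type 2 inflammation. The genes are neighbours, 33925 bases apart with no other gene between them, and arose from a duplication. Their upstream sequences are shown to make this visible. The RefSeq windows (GRCm38.p6, minus strand) aligned over 222 columns with 201 identical bases (90.5%), and capitals mark the bases that differ, for Chil3 at chr3:106167565-106167785 and for Chil4 at chr3:106219508-106219728:
Chil3: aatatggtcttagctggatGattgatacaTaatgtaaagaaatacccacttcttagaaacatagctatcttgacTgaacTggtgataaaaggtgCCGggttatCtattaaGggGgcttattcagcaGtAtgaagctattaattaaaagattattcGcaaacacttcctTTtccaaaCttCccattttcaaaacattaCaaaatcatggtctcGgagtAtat
Chil4: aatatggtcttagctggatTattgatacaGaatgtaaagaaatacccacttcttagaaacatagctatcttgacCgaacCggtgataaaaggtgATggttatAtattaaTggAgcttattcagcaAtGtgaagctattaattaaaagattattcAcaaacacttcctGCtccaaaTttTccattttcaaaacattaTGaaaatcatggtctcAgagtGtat
Both held TTCTTAGAA, a match to TTCNNNGAA, the palindrome of other STAT factors, with its first base at position −172 in Chil3 and −200 in Chil4. This pattern occurred in 8.30% of all windows. The longest protein-coding transcripts of the 2 genes in GENCODE M21 were 94.3% identical over 1540 aligned columns, and the longest identical stretch was 136 bases, shorter than a read of 150 bases. Shorter matches of a read could still be split between the copies, so the level of each is uncertain.

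Chil3 had 6, 26, 16 and 16 counts in Bach2KO mice 1 to 4 and 0 counts in all 4 Bach2WT mice. Chil4 had 68, 89, 2 and 11 counts in Bach2KO mice 1 to 4 and likewise 0 counts in all Bach2WT mice. Detection of both genes was thus limited to Bach2KO libraries. Chil4 counts were highest in both Bach2KO females and close to the floor in Bach2KO mouse 3, whereas Chil3 was lowest in Bach2KO mouse 1. Chil3 reached 0.161 ± 0.126 CPM in Bach2KO mice (SD, n = 4), which is at least 5.37-fold higher than a floor of 3 counts per Bach2WT library, or at least 2.68-fold with 6 counts. Chil4 reached 0.395 ± 0.487 CPM (SD, n = 4), at least 13.1-fold or 6.56-fold higher than these floors. This bound rests on Bach2KO mouse 2, without which the mean was 0.168 ± 0.219 CPM (SD, n = 3) and the bounds 5.58-fold and 2.79-fold. For Chil3 the bounds without that mouse were 3.67-fold and 1.84-fold. In Bach2KO mouse 3 Chil4 had 0.0264 CPM, below the mean Bach2WT floor of 0.0301 CPM. A pattern of 0 counts in all Bach2WT and of at least 1 count in all Bach2KO libraries was found for 45 of all 21434 genes (0.21%), Chil3 and Chil4 included. Of the relatives of these genes, Chil6 had 28 counts in Bach2KO and 2 in Bach2WT mice, and Chil1 had 20 and 5, both too low to be tested.

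Arg1 (ENSMUSG00000019987, chromosome 10, 24791119 to 24803382, minus strand) encodes arginase 1, which splits arginine into urea and ornithine and so withdraws the substrate of nitric oxide synthase. It had 18, 59, 16 and 6 counts in Bach2KO mice 1 to 4, and 8, 28, 0 and 4 counts in Bach2WT mice. The highest Bach2KO value came from mouse 2, and the genotypes overlapped. The means were 0.267 ± 0.306 CPM and 0.0900 ± 0.0901 CPM (SD, n = 4 each), and the log2 fold change was 1.53 (SE 1.15). Without Bach2KO mouse 2 it was 0.35. Arg2, the mitochondrial arginase, had a log2 fold change of 0.86 (SE 0.68, adjusted p = 0.840 in edgeR), and of 1.55 without Bach2WT mouse 1.

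Mrc1 (ENSMUSG00000026712, chromosome 2, 14234203 to 14336868, plus strand) encodes the mannose receptor CD206, an endocytic lectin of resident and alternatively activated macrophages. It had 0.828, 1.17, 0.885 and 1.44 CPM in Bach2KO mice 1 to 4. In Bach2WT mice 1 to 4 it had 1.08, 0.427, 1.34 and 0.331 CPM. The genotypes overlapped, and Bach2WT mice 1 and 3 lay within the Bach2KO range. The log2 fold change was 0.44 (SE 0.44), the smallest among the 7 genes in the fit.

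Clec10a (ENSMUSG00000000318, chromosome 11, 70047023 to 70061660, plus strand) and Mgl2 (ENSMUSG00000040950, chromosome 11, 70021155 to 70028376, plus strand) encode the macrophage galactose lectins MGL1 (CD301a) and MGL2 (CD301b), found on macrophages and on dermal and migratory dendritic cells. They are 18646 bases apart with no gene between them. Their longest protein-coding transcripts were 89.6% identical over 856 aligned columns and shared an identical stretch of 183 bases, longer than a read, so counts of one may hold reads of the other. Clec10a had 60, 31, 61 and 119 counts in Bach2KO mice 1 to 4 and 38, 25, 0 and 0 counts in Bach2WT mice. In CPM, Bach2WT mouse 1 lay above both Bach2KO females, and both Bach2WT males had no count. The means were 0.542 ± 0.210 CPM and 0.153 ± 0.201 CPM (SD, n = 4 each). Mgl2 had 0.377, 1.10, 0.991 and 1.29 CPM in Bach2KO mice 1 to 4, and 0.689, 0.282, 0.362 and 0.187 CPM in Bach2WT mice. Only Bach2KO mouse 1 lay within the Bach2WT range. The log2 fold changes were 1.82 (SE 1.04) for Clec10a and 1.30 (SE 0.49) for Mgl2. For Clec10a it moved between 1.38 and 3.00 without single mice, with 3.00 without Bach2WT mouse 1 and 1.56 without Bach2KO mouse 3, and it was 2.79 with adjustment for sex and 2.89 with the replicate block.

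Ccl22 (ENSMUSG00000031779, chromosome 8, 95472218 to 95478327, plus strand) and Ccl17 (ENSMUSG00000031780, chromosome 8, 95537081 to 95538664, plus strand) encode MDC and TARC, both ligands of CCR4. They are 58753 bases apart, with Cx3cl1 between them, and their transcripts were 58.9% identical over 304 aligned columns. Ccl22 had 30, 20, 12 and 28 counts in Bach2KO mice 1 to 4 and 0, 6, 6 and 0 counts in Bach2WT mice. All Bach2KO libraries lay above all Bach2WT libraries. The means were 0.183 ± 0.0427 CPM and 0.0219 ± 0.0253 CPM (SD, n = 4 each), with a log2 fold change of 2.87 (SE 1.05). Ccl17 had 12, 5, 4 and 5 counts in Bach2KO mice 1 to 4 and 6 counts in Bach2WT mouse 2, with 0 counts in the other Bach2WT mice. At this depth a difference in Ccl17 was not detectable, since all but 1 of the values lay at or below 6 counts. The upstream window of Ccl17 was the only one of the 7 that held both palindromes, TTCTCTGGAA at position −154 (GRCm38.p6, chr8:94810299-94810308) and TTCTTTGAA at position −99 (chr8:94810354-94810362), both on the plus strand. The AP-1 core TGANTCA, which Bach2 can also bind together with a small Maf partner, occurred in 7.81% of all windows and in 0 of the 7.

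Ccl24 (ENSMUSG00000004814, chromosome 5, 135598791 to 135601903, minus strand) encodes eotaxin-2. It had 4, 39, 32 and 25 counts in Bach2KO mice 1 to 4 and 9, 9, 14 and 2 counts in Bach2WT mice. In CPM, Bach2KO mouse 1 lay below all 4 Bach2WT mice, and the other 3 Bach2KO mice lay above all of them. The means were 0.262 ± 0.219 CPM and 0.0737 ± 0.0332 CPM (SD, n = 4 each), with a log2 fold change of 1.78 (SE 0.93).

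**Figure D2:**
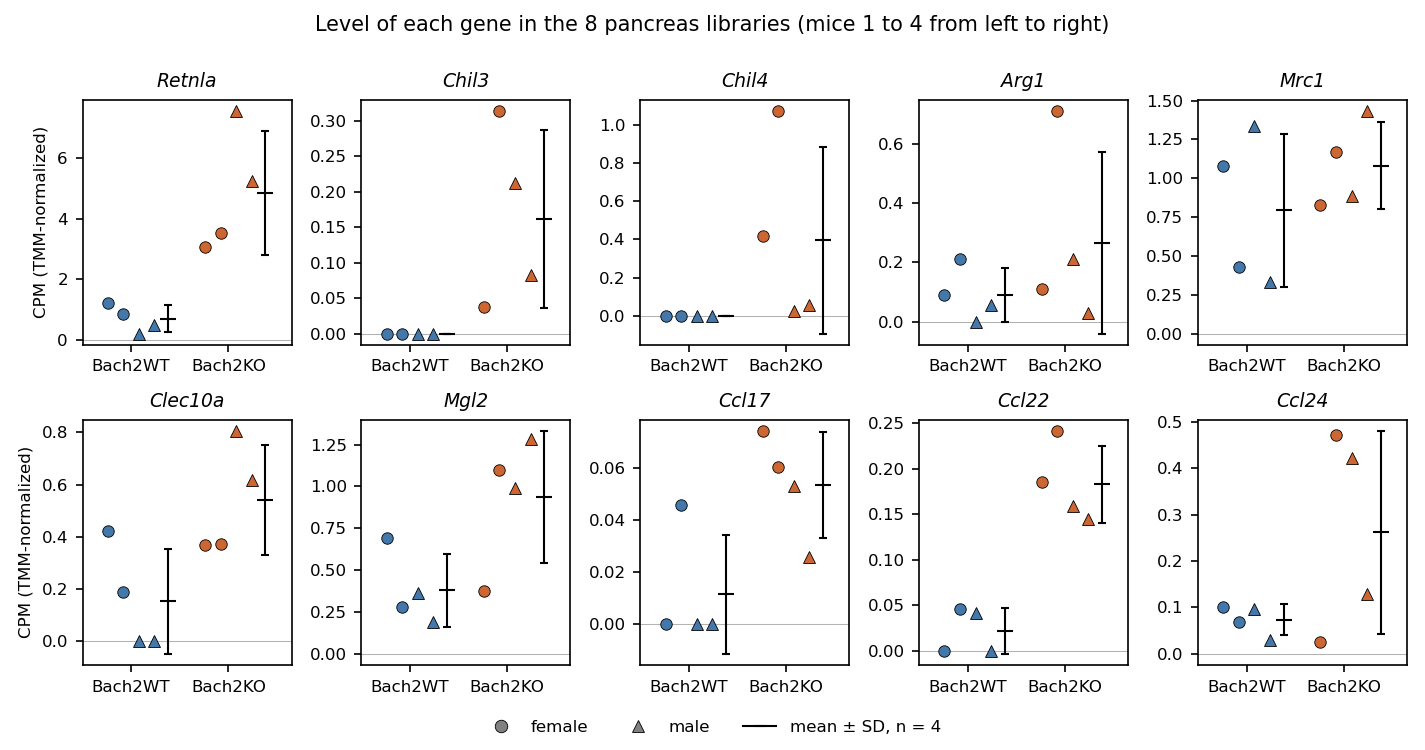
CPM values (y axis, linear, a separate scale per panel) of the 10 genes in the 4 Bach2WT (blue) and 4 Bach2KO (orange) libraries, with circles for females, triangles for males, and the mean ± SD (n = 4) in black. Retnla, Chil3, Chil4 and Ccl22 show no overlap between the genotypes, and Mrc1 overlaps widely.

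Looking across the 10 genes, there was no overlap between the genotypes for 4 of them, Retnla, Chil3, Chil4 and Ccl22, each higher in Bach2KO mice. Of all 21434 genes, 2.01% were higher without overlap, and since this contrast chose the genes, nothing is read from the difference. Leaving out a mouse can only add genes to these 4 and never remove any, so it is no test of them. Leaving out Bach2KO mouse 1 added Mgl2 and Ccl24, and leaving out Bach2WT mouse 1 added Clec10a and Mgl2. Ccl17 was added without Bach2KO mouse 4 or Bach2WT mouse 2, and no gene was added without Bach2KO mouse 3. The share of all genes that were higher without overlap also grew with fewer mice, to 3.16% without Bach2KO mouse 1, 4.28% without Bach2WT mouse 1 and between 2.99% and 4.28% over all 8 mice left out in turn. All 7 genes in the fit had a positive log2 fold change, where 54.7% of the 12820 genes tested did. How these genes stood in the fits of the whole table is listed beside each background only as a description, because the same contrast selected them. In edgeR, 0 of the 7 passed an adjusted p-value under 0.05 (background 0.0078%, 1 gene), and 3 had an unadjusted p-value under 0.05 (Retnla, Mgl2 and Ccl22; background 3.9% for higher genes). DESeq2 called Retnla, Chil3 and Chil4 (background 0.388% for higher genes), and edgeR without the filter called Retnla and Chil4 (background 0.257%), from which nothing is read either. The genes did not peak in the same mouse. Bach2KO mouse 2 had the highest CPM of Chil3, Chil4, Arg1, Ccl22 and Ccl24, Bach2KO mouse 3 of Retnla and Clec10a, Bach2KO mouse 4 of Mrc1 and Mgl2, and Bach2KO mouse 1 of Ccl17. All 10 genes had counts in every Bach2KO library, while 4, 2, 5 and 5 of them were at 0 in Bach2WT mice 1 to 4. Of all genes, 18058, 16204, 14626 and 17334 had counts in Bach2KO mice 1 to 4. In Bach2WT mice 1 to 4, 15849, 15620, 15213 and 14937 genes had counts. Nothing is read from the zeros of the 10 genes, since the same contrast chose them.

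The 2 sexes were compared with genotype as a covariate, a contrast that did not choose the genes. None of the 7 genes in the fit passed an adjusted p-value under 0.05, against 0.0312% of all genes tested (4 genes), and 0 of 7 had an unadjusted p-value under 0.05, against 5.29%. DESeq2 called 0 of the 10 genes and 0.1% of all genes. The log2 fold change of males against females lay between −2.13 for Arg1 (SE 1.11, adjusted p = 0.890 in edgeR) and 0.20 for Mrc1 (SE 0.45, adjusted p = 0.970 in edgeR). The direction for Mrc1 turned when Bach2WT mouse 2 or 3 was left out. With 4 females and 4 males these intervals are wide, so a sex difference of these genes was not detectable rather than absent.

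Whether the genotype difference itself differed between the sexes was asked with an interaction term on 2 mice per cell. Retnla had mean levels of 3.30 CPM in Bach2KO and 1.05 CPM in Bach2WT females, and of 6.40 and 0.353 CPM in males. The genotype difference in males exceeded that in females by 2.58 on the log2 scale (SE 0.56), which did not pass in edgeR (adjusted p = 0.672; 0 of 12820 genes passed, 787 genes or 6.14% at an unadjusted p under 0.05, and 18 of 21434 genes, or 0.084%, in DESeq2). In DESeq2, Retnla was among those 18 genes (difference 2.60, adjusted p = 0.031), and it was also called by edgeR without the filter (adjusted p = 0.00112; background 0.429%). Without Bach2KO mouse 3 the difference was 2.29 in edgeR (SE 0.63) and 2.30 in DESeq2 (SE 0.72), which then gave none of the 10 genes an adjusted p-value because its filter on mean counts left them out. Clec10a, with 0.373 and 0.306 CPM in Bach2KO and Bach2WT females and 0.711 and 0 CPM in males, did not pass in edgeR (adjusted p = 0.509) and passed in DESeq2 (adjusted p = 0.0189). Without Bach2KO mouse 3 its adjusted p was 1.00 in edgeR, and DESeq2 again gave none. Its fitted difference is no bound, since both Bach2WT males had 0 counts. For Chil4 the Bach2KO means were 0.747 CPM in females and 0.0417 CPM in males, so here the females lay higher, a difference that edgeR did not test because of the filter.

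Other genes of the same pathway were looked at in 5 lists, 79 genes in all, of which 69 had values and 38 could be tested. Of the 38, 23 were higher and 15 lower in Bach2KO mice, with a median log2 fold change of 0.10, against 0.05 over all genes tested. None passed an adjusted p-value under 0.05 in edgeR, 5 higher and 1 lower gene had an unadjusted p-value under 0.05, and DESeq2 called Il7r and Ccl8.

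The type 2 cytokines were near or under the floor. Il4 had 2 counts over the Bach2KO and 5 counts over the Bach2WT libraries, Il13 had 6 and 0, and Tslp, an epithelial alarmin, had 22 and 4. Only Il33 and Tgfb1 could be tested. Il33, an alarmin stored in nuclei, had a log2 fold change of −0.99 (SE 1.12, adjusted p = 0.913 in edgeR), and Tgfb1 one of 0.14 (SE 0.24, adjusted p = 0.945 in edgeR). At these counts a difference in the cytokines was not detectable.

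Of 13 tested receptors and signalling genes, 8 were higher and 5 lower. None of the 13 passed in edgeR or DESeq2, and 1 had an unadjusted p-value under 0.05 in edgeR. Il4ra, the receptor chain shared by IL-4 and IL-13, had 1.13 ± 0.396 CPM in Bach2KO and 0.956 ± 0.528 CPM in Bach2WT mice (SD, n = 4 each), which is 0.24 as log2 fold change (SE 0.44, adjusted p = 0.948 in edgeR). Il13ra1, its partner chain, had one of 0.16 (SE 0.86) and Stat6 one of −0.06 (SE 0.21), with adjusted p-values of 0.984 and 0.975 in edgeR. The direction of these 3 turned when single mice were left out. The smallest p-values belonged to Csf2rb2, Csf2rb and Il2rg. Csf2rb encodes the beta chain common to the IL-3, IL-5 and GM-CSF receptors, Csf2rb2 its mouse relative that serves the IL-3 receptor alone, and Il2rg the chain shared by receptors of the IL-2 family. Csf2rb2 had a log2 fold change of 2.01 (SE 0.91) and Csf2rb one of 1.49 (SE 0.70), with adjusted p-values of 0.663 and 0.669 in edgeR. Csf2rb2 had 94, 40, 45 and 54 counts in Bach2KO mice and 7, 47, 4 and 0 in Bach2WT mice, and its log2 fold change was 3.71 without Bach2WT mouse 2 and 3.04 with the replicate block. For Il2rg it was 1.58 (SE 0.85, adjusted p = 0.728 in edgeR), and 2.87 without Bach2WT mouse 1. Il7r, the IL-7 and TSLP receptor chain, had 93, 8, 10 and 10 counts in Bach2KO mice 1 to 4 and 0 in all Bach2WT mice without passing the filter, and DESeq2 called it (adjusted p = 0.00377). Its mean in Bach2KO mice was 0.214 CPM, and 0.0935 CPM without mouse 1. That mouse also had the highest summed level of T cell markers (3.22 CPM) and of B cell and lymph node markers (12.8 CPM), whose part in this value was not tested. Among the chemokine receptors, Ccr4 had 16 counts and Ccr3 had 8 counts, all in Bach2KO libraries, which is too few for a test.

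Of the partner chemokines, Ccl8, a ligand of CCR8 in the mouse, had 0.567 ± 0.343 CPM in Bach2KO and 0.0472 ± 0.0631 CPM in Bach2WT mice (SD, n = 4 each) without overlap. Its log2 fold change was 3.55 (SE 1.02), which did not pass in edgeR (adjusted p = 0.513) and passed in DESeq2 (adjusted p = 0.023). Without single mice it lay between 3.11 and 4.67, the highest without Bach2WT mouse 1. Ccl11, eotaxin-1, had a log2 fold change of 1.23 (SE 0.61, adjusted p = 0.695 in edgeR). Of the family relatives, 1 of 4 tested was higher and 3 lower, and 11 more had values without passing the filter. Of these, only Clec4n had fewer counts in Bach2KO (8) than in Bach2WT mice (16). Retnlg had 114 counts in Bach2KO and 8 in Bach2WT mice, Cd209a 55 and 12, and Cd209d 39 and 7. Clec7a had 61 and 25, Clec4a2 50 and 24, Asgr2 20 and 5, and Chia1 11 and 0. Cd209b had 261 and 22, with 231 from a single Bach2KO library. Chil6 and Chil1 are given above. Retn, the adipocyte relative of Retnla, had 32, 0, 0 and 0 counts in Bach2KO mice 1 to 4 and 43, 66, 24 and 0 in Bach2WT mice (log2 fold change −2.43, SE 1.47, adjusted p = 0.772 in edgeR). All its Bach2KO counts came from mouse 1. Mrc2, a collagen receptor related to Mrc1, had a log2 fold change of −0.36 (SE 0.34, adjusted p = 0.883 in edgeR).

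Other genes tied to alternative activation were 11 higher and 6 lower of 17 tested, with a median of 0.08. Klf4, a factor that cooperates with STAT6, had 1.18 ± 0.387 CPM in Bach2KO and 0.493 ± 0.109 CPM in Bach2WT mice (SD, n = 4 each) without overlap, and a log2 fold change of 1.25 (SE 0.36, adjusted p = 0.513 in edgeR). Alox15, which encodes a lipoxygenase, had one of 1.03 (SE 0.42, adjusted p = 0.636 in edgeR). Igf1, a growth factor that many tissue cells make, was lower without overlap. Bach2KO mice had 20.4 ± 3.39 CPM and Bach2WT mice 28.6 ± 2.32 CPM of it (SD, n = 4 each). In edgeR, Igf1 changed by −0.49 on the log2 scale (SE 0.16, adjusted p = 0.531). DESeq2 did not call Igf1 on all mice (adjusted p = 0.184) and called it without Bach2KO mouse 3 (adjusted p = 0.00624). That last fit gave only 1483 genes an adjusted p-value and called 153 of them, 140 of these lower, so the call says little about Igf1. Of markers of resident macrophages on this list, Cd163 (−0.18), Stab1 (0.13), Lyve1 (0.40) and Cbr2 (−0.35) had log2 fold changes within their standard errors of 0.41, 0.24, 0.49 and 0.46. Folr2, which did not pass the filter, had 73 counts in Bach2KO and 22 in Bach2WT mice.

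**Figure D3:**
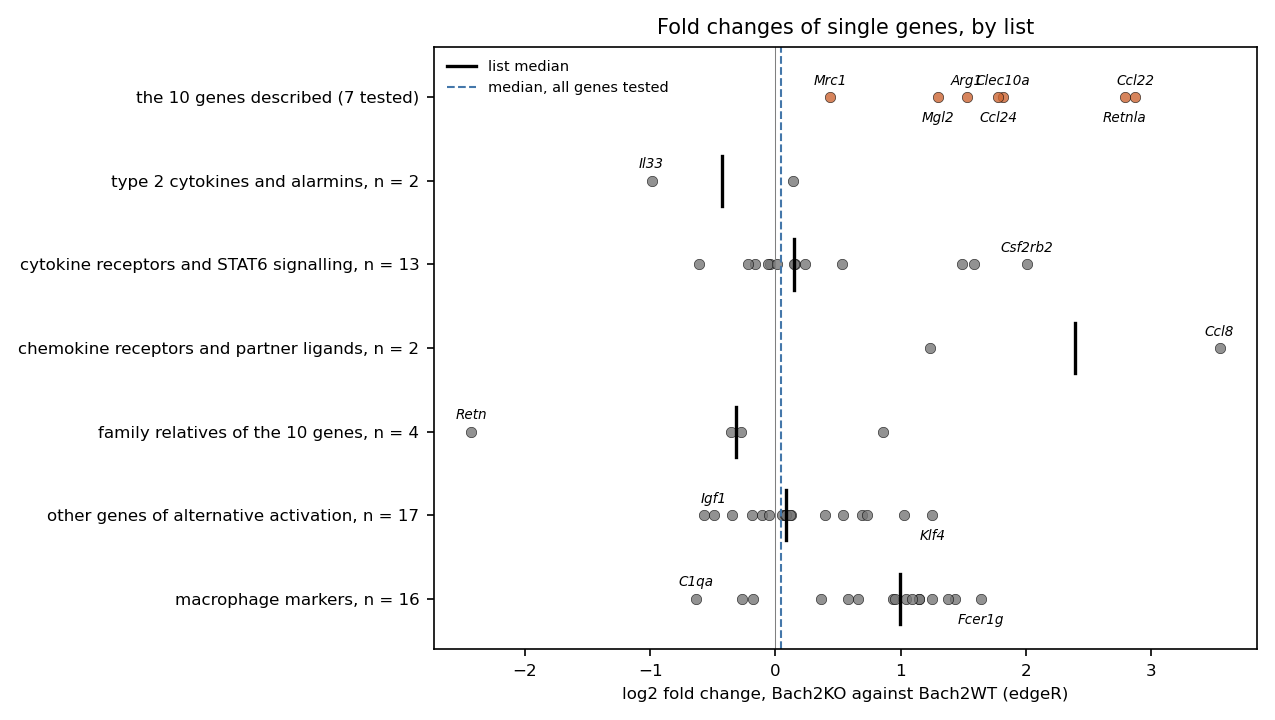
Log2 fold changes of Bach2KO against Bach2WT mice (x axis, edgeR) for the tested genes of each list (rows), with 1 point per gene, the list's median as a black bar and the median of all 12820 tested genes, 0.05, as a dashed line. The 7 genes of the top row were chosen with this contrast in view, and the 17 other genes of alternative activation centre on 0.08.

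Markers of the cells that could hold these transcripts moved as follows. Of 16 macrophage markers, all tested, 13 were higher and 3 lower in Bach2KO mice with a median log2 fold change of 1.00. Of all tested genes, 54.7% were higher. None of the 16 passed in edgeR or DESeq2, and 4 had an unadjusted p-value under 0.05 in edgeR. The 3 lower ones were C1qa (−0.64), Adgre1 (−0.27) and Cx3cr1 (−0.18), while C1qb (0.95) and C1qc (0.58) were higher. Their summed level was 25.8 to 43.8 CPM in Bach2KO and 17.7 to 34.4 CPM in Bach2WT mice, so the ranges overlapped, and none of the 16 was at 0 in a whole group. C1qa alone had a mean of 6.78 CPM in Bach2KO and 10.5 CPM in Bach2WT mice, where the sums had means of 35.3 and 26.7 CPM. The summed level of 10 dendritic cell markers with values was 2.21 to 4.07 CPM against 1.24 to 2.29 CPM, also with overlap. Eosinophil markers summed to 0.519 to 1.99 CPM against 0 to 0.355 CPM without overlap. Most of the Bach2KO mean of 1.15 CPM came from Rnase2a (0.665 CPM) and Ear2 (0.360 CPM), while Epx, Ear1 and Ear6 had no values. Siglecf, Rnase2a and Rnase2b were at 0 in all Bach2WT libraries. Siglecf had only 6 counts and Rnase2b 18 counts over the Bach2KO libraries, and each was at 0 in 2 of these. Which cells made the Rnase2a and Ear2 transcripts was not tested. Rnase2a, of the family of eosinophil-associated ribonucleases, was the only one of the 12820 tested genes that passed in edgeR (adjusted p = 0.0439). That call was lost with adjustment for sex (adjusted p = 0.113 in edgeR) and in each of the 8 fits that left out 1 mouse (0.0521 to 0.188), and edgeR without the filter called 73 of 21434 genes. Neutrophil markers, Retnlg included, summed to 0.114 to 1.07 CPM against 0 to 0.0888 CPM without overlap, and 0 of the 7 with values passed edgeR's filter. S100a8, S100a9, Mpo and Ngp were at 0 in all Bach2WT libraries. Over the Bach2KO libraries they had 58, 56, 6 and 6 counts, with Mpo and Ngp at 0 in 3 of these libraries. Elane went the other way, with 0 counts in Bach2KO and 6 in Bach2WT libraries, and Camp had 2 in each genotype. T cell markers (0.894 to 3.22 against 0.474 to 2.24 CPM), B cell and lymph node markers (1.00 to 12.8 against 0.763 to 7.67 CPM), markers of type 2 lymphocytes (0.954 to 2.21 against 0.518 to 1.38 CPM), mast cell and basophil markers (0.942 to 2.26 against 2.01 to 2.26 CPM) and adipocyte markers (3.32 to 12.97 against 1.28 to 21.7 CPM) overlapped. Plin1, an adipocyte marker that coats fat droplets, had 14, 0, 0 and 0 counts in Bach2KO and 101, 105, 44 and 14 in Bach2WT mice, lower without overlap (log2 fold change −4.57, SE 1.14, adjusted p = 0.367 in edgeR and 0.185 in DESeq2, and 0.0211 in edgeR without the filter). Of the 10 acinar cell markers, 8 were lower and 2 higher in Bach2KO mice with a median log2 fold change of −0.25, and their summed levels, given above, overlapped. Cpa1, a digestive carboxypeptidase, was lower without overlap and had a log2 fold change of −0.53 (SE 0.15), which did not pass in edgeR (adjusted p = 0.513) and passed in DESeq2 (adjusted p = 0.0457). Without Bach2KO mouse 3 the macrophage sums were 25.8 to 37.6 CPM in Bach2KO mice, the dendritic cell sums 2.21 to 2.97 CPM and the eosinophil sums 0.519 to 1.06 CPM. The macrophage and dendritic cell sums still overlapped between the genotypes. For eosinophil markers, leaving out a mouse could not bring about an overlap. The part of these cells in the values of the 10 genes was not tested.

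Each gene was therefore also set against the summed macrophage markers of its own library, as a description. That sum includes C1qa, and how the shares stand without it was not tested. Retnla amounted to 9.41% to 17.2% of that sum in Bach2KO mice and to 0.977% to 3.59% in Bach2WT mice and did not overlap. Ccl22 amounted to 0.537% ± 0.170 against 0.0823% ± 0.0971 (SD, n = 4 each), again without overlap. Mrc1 amounted to 3.14% ± 0.896 and 3.09% ± 2.11 (SD, n = 4 each), nearly the same mean in both genotypes. Mgl2 (1.46% to 3.77% against 0.865% to 2.00%) and Clec10a (0.996% to 1.84% against 0% to 1.23%) overlapped. The genes without overlap on this scale were the same 4 as in CPM. Of all genes, 0.672% were higher without overlap on this scale. Chil3 and Chil4 had 0 counts in all Bach2WT mice, so scaling could not make them overlap. Since the genotype contrast chose these genes, nothing is read from their staying apart or from the lower share.

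**Figure D4:**
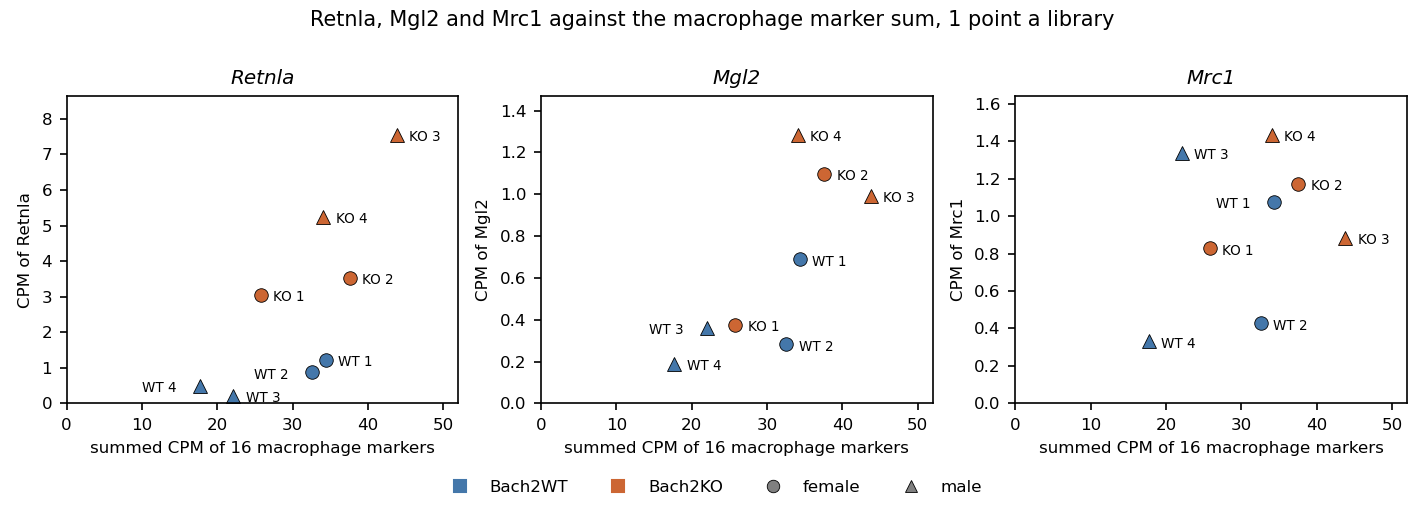
CPM of Retnla, Mgl2 and Mrc1 (y axes, linear from 0) against the summed CPM of 16 macrophage markers (x axes) in each library, blue for Bach2WT and orange for Bach2KO, circles for females and triangles for males, labelled by mouse. The sums span 25.8 to 43.8 CPM in Bach2KO and 17.7 to 34.4 CPM in Bach2WT libraries, and Retnla values do not overlap between the genotypes while Mrc1 values do.

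Across the 8 libraries, which share genotype, depth and tissue composition as sources of covariation, the 7 tested genes did not form 1 block. Retnla and Clec10a correlated with r = 0.90, and with r = 0.87 after each genotype was centred on its mean, and both values were 0.89 without Bach2KO mouse 3 (n = 7). Mgl2 correlated with Ccl24 (r = 0.79, centred 0.74) and with Mrc1 (r = 0.76, centred 0.70). Retnla and Ccl22, with r = 0.70 over all libraries, had r = −0.43 after centring, and Retnla and Mrc1 had −0.19. The genes outside the 10 whose values were most like the mean log2 CPM of the 7 genes were Nup188, Ddx19b, Gm6969, Fcer1g, Chmp7, H2-T23, Naa20 and Wdpcp (r = 0.94 to 0.97, n = 8 libraries), and after centring Grb14, Tyk2, Mpzl2, Prkd1, Drosha, Ms4a7, Mis12 and Fcer1g (r = 0.94 to 0.96). Fcer1g, which encodes the signalling chain of Fc receptors and is 1 of the 16 macrophage markers, was in both sets. These are the highest of all coefficients computed over the 12820 tested genes and are given as a description.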

How the data were processed

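RNA of pancreatic tissue was enriched for poly(A) transcripts, and a commercial provider read both ends of the fragments over 150 bases. The submitters' processing notes name fastp, HISAT2 2.2.1, featureCounts 2.0.6 and the build mm39, and whether the counting used strand is not given in the sources used here. The deposited counts per gene and library hold no normalization. The authors also deposited a normalized signal (counts divided by 1 size factor per library), which was not used here, and FPKM values, which are that signal divided by gene length. The authors' own fold changes and p-values, deposited in the same table, were not used. Coordinates of genes are those of the table (GRCm39), and promoter windows are from RefSeq (GRCm38.p6; 7 of the 10 genes matched), as the files' own build had no such windows here.

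For genotype, counts of all 8 mice entered edgeR 4.0.16 without a covariate (quasi-likelihood test, filterByExpr, TMM factors), with Benjamini-Hochberg adjustment over all genes tested and a threshold of 0.05. The sexes were compared with genotype as a covariate, and the interaction was fitted with 2 mice per cell. Standard errors were taken as the log2 fold change over the square root of F. CPM values use TMM factors, and log2 CPM values a prior count of 2. The labels do not say whether mice were littermates, and p-values measure the spread between these mice. Whether the replicate numbers pair the mice is not given in the labels either, and the main fit treated the mice as unpaired. Alternatives were DESeq2 1.42.0, RLE factors, no filter, a minimum of 10 counts per mouse, adjustment for sex, a block for the replicate number, and omission of single mice. Counts divided by 2, scaling to macrophage markers, and DESeq2 without Bach2KO mouse 3 were added after seeing the data. The main edgeR fit and the DESeq2 fit on all mice were tested on simulated data for each comparison, and the other alternatives were not.

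The 10 genes and all lists were chosen with earlier results of these data known. Named from each pathway list were the genes past the threshold, the receptors Il4ra, Il13ra1, Ccr4 and Ccr3 with Stat6, and the 3 genes with the smallest p. Il7r, Plin1, Cpa1, the low-count relatives and cytokines, the resident macrophage markers and the other single cell type markers were named after their values were seen. Most alike genes are the 8 with the highest Pearson r. Motifs were searched on both strands of windows of 300 bases. Sequences were aligned locally with Biopython 1.88. The protein identities planned at the outset were replaced by transcript identities.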

Additional observations from a re-analysis of the deposited data

Results flagged for a closer look

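Retnla was singled out because its genotype difference was larger in males than in females, by 2.60 on the log2 scale in DESeq2 (adjusted p = 0.031). In edgeR the difference was 2.58 (adjusted p = 0.672) and lay between 2.05 and 3.22 when single mice were left out. Both males were higher than both females among Bach2KO mice, and both were lower among Bach2WT mice. Clec10a was singled out for the same reason, with a fitted difference of 8.31 in DESeq2 (adjusted p = 0.0189) and an adjusted p of 0.509 in edgeR, and its size is no bound because both Bach2WT males had 0 counts. Each sex and genotype held 2 mice.

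Ccl17 was singled out because 1 of 4 Bach2WT libraries, that of mouse 2, had 0.0457 CPM (6 counts) while the others had 0 counts. The criterion was Dixon's 95% critical value for a group of 4, which chance exceeds in about 1 of 20 groups, and 18 groups were looked at.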

How the results depend on the processing

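In place of 1 gene called between the genotypes by edgeR, DESeq2 called 80 and edgeR without a filter 73, while a minimum of 10 counts per mouse, adjustment for sex, the replicate block, counts divided by 2, and the fits that each left out 1 mouse called 0 to 0 genes. Of the 10 genes, 0 were called by edgeR, 3 by DESeq2 and 2 without a filter, and of the pathway lists 0, 2 and 1. Between the sexes, edgeR called 4 genes, DESeq2 19, the fit without a filter 152, a minimum of 10 counts 1, and fits without single mice 2 to 9 (9 without Bach2KO mouse 2, 2 without Bach2KO mouse 3 or 4). For the interaction, edgeR called 0, DESeq2 18, no filter 92 and fits without single mice 0 to 6 genes (6 without Bach2KO mouse 2), and 2 of the 10 genes, Retnla and Clec10a, were called by DESeq2 and without a filter. Leaving out a mouse can only add genes without overlap. Among the 10 genes they then numbered 4 to 6, where 2.99% to 4.28% of all genes were higher without overlap. The fitted log2 fold changes of the 10 genes between the genotypes kept their direction under all alternatives that could be fitted. DESeq2 without Bach2KO mouse 3 called 153, 19 and 13 genes in the 3 comparisons, its filter left 0 of the 10 genes with an adjusted p for genotype or interaction, and Il4ra then had −0.010. Directions turned without single mice for Il4ra (−0.046 to 0.59), Il13ra1 (−0.19 to 0.59), Stat6 (−0.18 to 0.052), Il33 (−2.12 to 0.52) and Tgfb1 (−0.0024 to 0.23) between the genotypes and for Mrc1 between the sexes (−0.27 to 0.51). Where a cell kept 1 mouse, it was assumed to vary like the others. Same-numbered mice of the 2 genotypes deviated together with r = 0.21, −0.03, −0.04 and −0.05, and differently numbered mice with −0.16 to 0.11. Such values cannot decide whether the numbers pair the mice, which the labels do not say. The cause of these shifts was not tested. With 0 to 30 counts per library for Chil3, Ccl17 and Ccl22, depth limits what can be said of them.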
